A study of Mus musculus with 23 samples.

Results

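The major urinary protein genes (*Mup* genes) encode small secreted lipocalins that mouse hepatocytes make in large amounts and that are filtered into urine, where they bind volatile pheromones and prolong their release. The genes lie next to each other on chromosome 4 in 1 cluster, with older, more divergent copies at its edges and an array of near-identical copies between them. Their hepatic transcription is known to depend on pulses of growth hormone acting through its receptor, JAK2 and STAT5, and it also responds to thyroid hormone, glucocorticoids and nutritional state. The 10 members described here were chosen by their symbols (*Mup1*, *Mup2*, *Mup3*, *Mup7*, *Mup10*, *Mup11*, *Mup15*, *Mup17*, *Mup20* and *Mup21*) from the 27179 genes counted, and they were chosen on counts of these same mice over all 3 groups. Their levels and differences are therefore given as a description, without p-values. The count table holds 22 symbols made of Mup and a number, and the sum over these 22 is given beside the single genes because near-identical copies share reads.

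RNA was sequenced from liver tissue without visible tumors of 15 female mice. All carried Cre recombinase under the albumin promoter, which acts in hepatocytes, homozygous floxed *Trp53* and at least 1 floxed *Icmt* allele, the gene of the methyltransferase that completes the processing of prenylated proteins such as RAS. Ctrl mice (n = 6) had wild-type *Braf* and *Icmt* flx/+, ABpIF/+ mice (n = 6) carried the Cre-activated *Braf* V600E allele with *Icmt* flx/+, and ABpIF/F mice (n = 3) carried it with *Icmt* flx/flx. The V600E allele is taken from the study's methods, where the genotype labels of both groups read BRAF +/+ and those of the Ctrl mice BRAF wt. The labels give no age. They give 1 strain description for all ABpIF/+ and ABpIF/F mice and for Ctrl mouse BG3, and another for the other 5 Ctrl mice. Between these 5 and the other groups, a difference in genotype cannot be told apart from a difference in crosses. Only 1 Ctrl mouse, BG3, allows a comparison within 1 strain description. The counted reads of a mouse numbered 24742910 to 32262649. Values are CPM, TMM-scaled counts per 1e6 counts of a library, as mean ± SD over mice, and they compare the same gene between mice. *Icmt* itself was at 30.8 ± 2.72 CPM in Ctrl, 32.7 ± 3.49 CPM in ABpIF/+ and 15.9 ± 0.711 CPM in ABpIF/F livers, and was lower in every ABpIF/F mouse than in every Ctrl mouse (log2 fold change -0.96, SE 0.13, adjusted p = 8.51e-06, edgeR quasi-likelihood test). The summed level of 8 hepatocyte markers was between 102500 and 136100 CPM in Ctrl livers. It was between 181200 and 244700 CPM in ABpIF/+ and between 121900 and 215800 CPM in ABpIF/F livers. By this sum hepatocyte RNA was abundant in all samples. Most of the sum was *Alb*, at 89160 ± 9253 CPM in Ctrl, 153800 ± 20080 CPM in ABpIF/+ and 144100 ± 40920 CPM in ABpIF/F livers.

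On the GRCm38 build the cluster runs over 2194.1 kb of chromosome 4, from position 59956804 at *Mup4* to position 62150863 at *Mup21*. Of the members, *Mup7*, *Mup2*, *Mup1*, *Mup10*, *Mup11*, *Mup15* and *Mup17* lie in that order in the central array, between 109.7 and 1635.1 kb from the first gene. *Mup20*, *Mup3* and *Mup21* lie together at the far end, at 2093.4, 2126.7 and 2191.1 kb. How far reads can be assigned to a copy differs between these positions. In GENCODE transcripts, 97.1% of the windows of 100 bases of *Mup3* and 95.5% of those of *Mup21* occur in no other gene, against 61.2% for *Mup20*, 40.6% for *Mup17* and between 2.7% and 18.4% for the other 6 central members. *Mup15* and *Mup2* share the most, with 2.7% unique windows each, and 67.8% of the windows of *Mup15* also occur in *Mup2*. The counting options for reads that fit several genes are not given in the sources used here, so single central genes are uncertain. Their sum does not depend on which copy a read was given to. It would still miss reads left out for fitting several genes. *Mup3* is less affected by either.

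The promoters of the members show the same division. RefSeq promoters (GRCm38.p6) were at hand for 8 of the 10 members, not for *Mup1* and *Mup20*. Over the 250 bases before the start, *Mup15* and *Mup17* were identical at all of 247 aligned bases, gaps aside, and *Mup2* and *Mup17* at 99.2% of theirs, whereas *Mup17* and *Mup3* were identical at 87.6% and *Mup3* and *Mup21* at 93.9%. The stretches below run from the shared letters agacccata to the TATATAA box, set in capitals, and are shown because the A-rich tract between them is long in the central genes and short at the far end. All lie on the minus strand, at chr4:61595851-61595934 (*Mup17*), chr4:61439723-61439804 (*Mup15*), chr4:60139877-60139963 (*Mup2*), chr4:60582179-60582263 (*Mup10*), chr4:62087322-62087371 (*Mup3*) and chr4:62150843-62150889 (*Mup21*).
Mup17: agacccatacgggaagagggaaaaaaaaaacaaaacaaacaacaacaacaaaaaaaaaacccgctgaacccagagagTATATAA
Mup15: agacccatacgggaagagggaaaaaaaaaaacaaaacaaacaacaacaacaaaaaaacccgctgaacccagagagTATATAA
Mup2: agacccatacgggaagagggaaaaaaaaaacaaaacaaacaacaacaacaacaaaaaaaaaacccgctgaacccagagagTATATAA
Mup10: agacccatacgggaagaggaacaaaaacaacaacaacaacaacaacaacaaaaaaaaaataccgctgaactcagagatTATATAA
Mup3: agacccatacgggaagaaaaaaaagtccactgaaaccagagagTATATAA
Mup21: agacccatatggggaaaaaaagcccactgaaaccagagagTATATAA
Between cccata and ctgaa the tract measured 54 bases in *Mup17*, 52 in *Mup15*, 57 in *Mup2* and 55 in *Mup10*, but 20 in *Mup3* and 17 in *Mup21*. The letters TATATAA, searched on both strands, were found in the 250 bases of 6 of the 8 member promoters and of 3.0% of all 32851 RefSeq promoters. In *Mup7* and *Mup11* they were not in this window. The STAT5 palindrome TTCNNNGAA was in none of the 14 *Mup* promoters of the table and in 7.0% of all promoters. These searches describe letters in this window only.

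In Ctrl livers the 22 symbols summed to 3284 ± 858 CPM (n = 6), which was 0.343% ± 0.0782 of all counts. *Mup3* had by far the most counts of the members. It had 4143, 1889, 2220, 2169, 2173 and 2703 CPM in Ctrl mice BG3, malpa387, malpa454, malpa458, malpa459 and malpa462, and held 77.8% ± 11.3 of the *Mup* counts. Per kilobase of exon, which allows for gene length only, *Mup3* was at 2387 ± 771 CPM per kb, *Mup17* at 283 ± 223 and *Mup15* at 141 ± 103. *Mup20*, which encodes the male pheromone darcin, followed at 30.2 ± 6.50 CPM per kb, then *Mup11* at 18.0 ± 8.25. *Mup2* was at 7.86 ± 2.23, *Mup7* at 5.61 ± 2.79, *Mup21* at 4.75 ± 2.66, *Mup10* at 2.89 ± 1.09 and *Mup1* at 0.509 ± 0.224 CPM per kb. In this order neighbors overlapped within their SDs, except that *Mup3* stood above *Mup17*, *Mup15* above *Mup20* and *Mup10* above *Mup1*. The lengths are those of GENCODE M21, which may differ from the annotation used for counting. The share of unique windows also differs between members, from 97.1% in *Mup3* to 2.7% in *Mup15* and *Mup2*. If reads that fit several genes were left out, central members would be undercounted against *Mup3*. The order and the shares are therefore those of assigned reads.

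*Mup17* and *Mup15* varied most of the members among the Ctrl mice. *Mup17* had 149, 31.3, 251, 646, 237 and 263 CPM in BG3, malpa387, malpa454, malpa458, malpa459 and malpa462. *Mup15* had 75.6, 13.1, 131, 299, 128 and 134 CPM in the same order. Both were lowest in malpa387 and highest in malpa458, a 20.7-fold and a 22.7-fold range, while *Mup3* varied 2.19-fold and *Mup20* 1.78-fold. The ratio of *Mup17* to *Mup15* counts stayed between 1.85 and 2.38 in the 6 mice, so the counts of the pair varied together. The part of reads shared between copies in this was not tested. The SD of log2 CPM among Ctrl mice was 1.45 for *Mup17* and 1.52 for *Mup15*, higher than in 99.8% and 99.9% of the 9568 genes that averaged 5 CPM or more, whose median SD was 0.23. The 7 central members held 3.12% of the *Mup* counts in malpa387 (95% exact binomial interval 2.97 to 3.26) and 27.6% in malpa458 (27.3 to 27.9), where *Mup3* held 59.0% (58.7 to 59.3). Such intervals cover counting error only. The 15 mice are separate animals, although 8 of them are listed as 2 samples each and have only 1 column of counts.

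**Figure D1:**
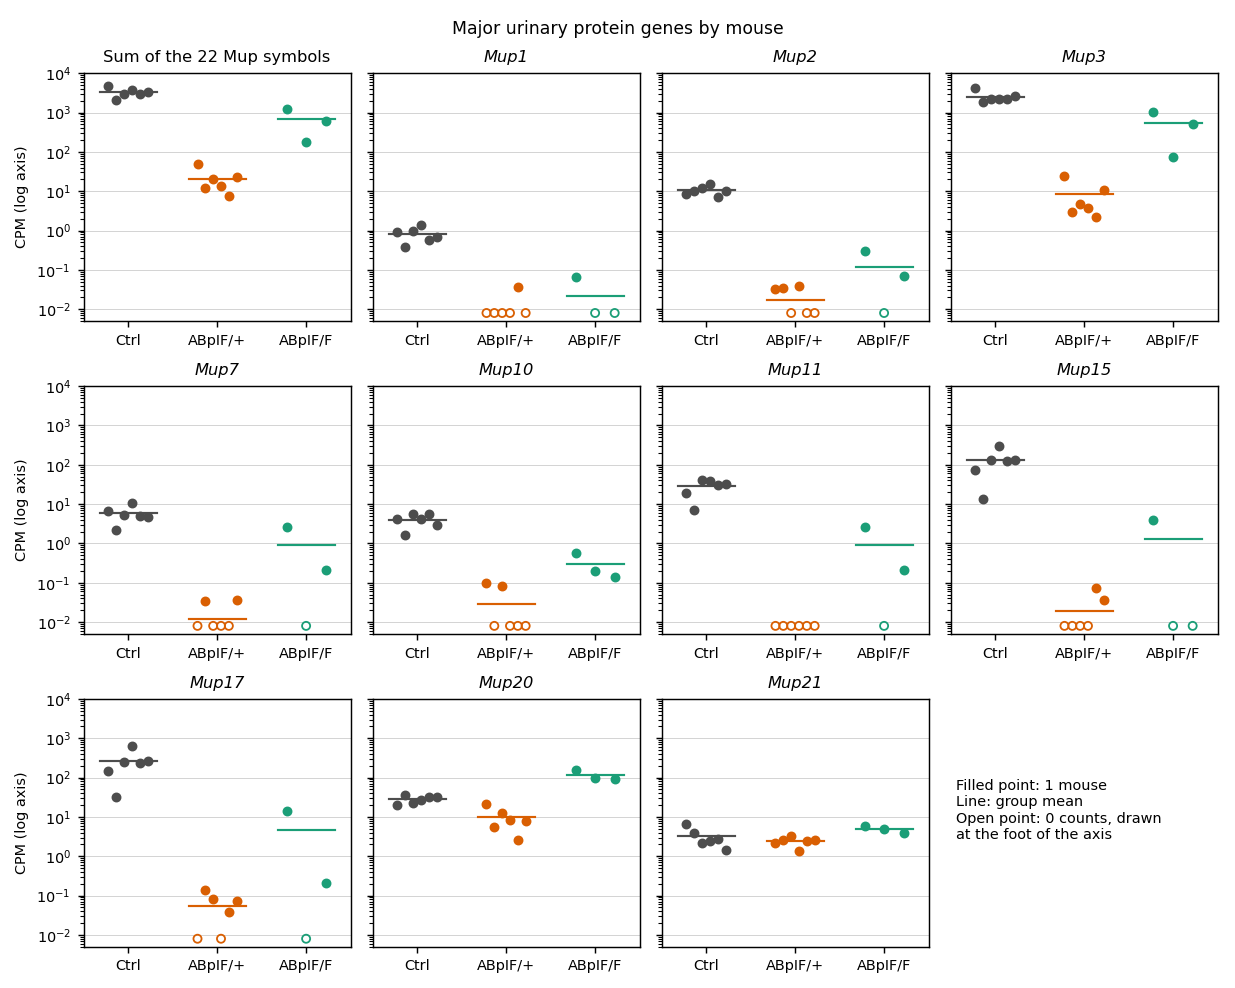
CPM on a log axis of the sum of the 22 Mup symbols and of each of the 10 members in every mouse of the 3 groups, with a line at the group mean and open points at the foot of the axis for mice with 0 counts. The central genes reach 0 counts in ABpIF/+ and in part of the ABpIF/F mice, Mup3 lies between 73.7 and 1021 CPM in ABpIF/F mice, and Mup20 is higher in all 3 ABpIF/F mice than in every Ctrl mouse.

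In ABpIF/+ livers nearly all *Mup* RNA was missing. The sum over the 22 symbols was 48.6, 11.9, 21.0, 13.5, 7.55 and 22.8 CPM in BG175, BG30, BG31, BG40, BG55 and BG88, against at least 2107 CPM in every Ctrl mouse. The mean of 20.9 ± 14.7 CPM was 157-fold below that of Ctrl, and the log2 ratio of means was -7.30. Against BG3 alone, the Ctrl mouse with the strain description of the ABpIF/+ mice, the log2 ratio was -7.80, and against the other 5 it was -7.17. With calls made at adjusted p under 0.01 where the log2 fold change reached 1 in size, edgeR called 8 of the 10 members lower and none higher in ABpIF/+ than in Ctrl livers. Over all 27179 genes 5.35% were called lower and 4.69% higher, and nothing is read from the members' count since this contrast entered their choice. The median fitted log2 fold change was -8.36 over the members and 0.00 over all genes.

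*Mup3* had 24.9, 2.90, 4.68, 3.79, 2.23 and 11.1 CPM in BG175, BG30, BG31, BG40, BG55 and BG88. Every ABpIF/+ mouse was far below every Ctrl mouse, and the mean of 8.25 ± 8.73 CPM was 309-fold lower (fitted log2 fold change -8.26, SE 0.88). Without BG175, the highest ABpIF/+ mouse, it was 517-fold lower. Only 59 to 777 counts of *Mup3* remained per mouse, where Ctrl mice had 50756 to 101007.

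The 7 central members together had 23 counts in the 6 ABpIF/+ livers, between 1 and 6 per mouse, against 77809 counts in the 6 Ctrl livers. *Mup11* had 0 counts in all 6. A floor of 3 counts over the group, 0.0182 CPM, puts *Mup11* at least 1563-fold lower in mean CPM than in Ctrl livers. For the other 6, each with few counts, the ratio of Ctrl to ABpIF/+ is that of the pooled counts over the pooled library sizes, with a 95% counting interval. *Mup17* had 0, 4, 2, 0, 1 and 2 counts in BG175, BG30, BG31, BG40, BG55 and BG88, a mean of 0.0548 ± 0.0529 CPM, and a ratio of 5005 (2636 to 10940). *Mup15* had 3 counts in all, with a ratio of 7418 (2538 to 35980). *Mup2* also had 3 counts, with a ratio of 580 (198 to 2817), *Mup7* had 2, with a ratio of 485 (134 to 4009), and *Mup1* had 1, with a ratio of 134 (23.7 to 5333). *Mup10* had 5 counts and a ratio of 135 (57.4 to 416). The fold between mean CPM moved by more than 1.5 times when a single mouse was left out for *Mup15*, to 17640 without BG55, for *Mup7*, to 787 without BG30 and 850 without BG88, and for *Mup10*, to 249 without BG175 and 209 without BG31. *Mup1* had 0 counts without BG55. All 7 genes were lower in every ABpIF/+ mouse than in every Ctrl mouse, including malpa387, the Ctrl mouse in which *Mup17* and *Mup15* were lowest. Of all 27179 genes, 8.13% were lower in every ABpIF/+ than in every Ctrl mouse, and nothing is read from the members' count.

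The other 2 members at the far end of the cluster, on either side of *Mup3*, lay closer to their Ctrl levels. *Mup20* was at 21.4, 5.59, 12.8, 8.20, 2.57 and 7.89 CPM in BG175, BG30, BG31, BG40, BG55 and BG88, against 19.9, 35.4, 22.4, 26.8, 31.8 and 31.8 CPM in BG3, malpa387, malpa454, malpa458, malpa459 and malpa462. The mean was 2.88-fold lower, and BG175 overlapped with the Ctrl range (fitted log2 fold change -1.52, SE 0.39). *Mup21* was at 2.43 ± 0.619 CPM, with a range of 1.35 to 3.23 CPM against 1.45 to 6.48 CPM in Ctrl (fitted log2 fold change -0.40, SE 0.29). In BG3 *Mup21* was at 6.48 CPM and in the other 5 Ctrl mice at 2.56 ± 0.922, and with the strain description as a covariate the fitted log2 fold change was -1.42. Differences between members were not tested.

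The make-up of the remaining *Mup* counts differed accordingly. *Mup20* held 46.9% ± 12.0 of the *Mup* counts in ABpIF/+ and 0.937% ± 0.429 in Ctrl livers. *Mup21* held 16.1% ± 10.0 and 0.101% ± 0.0539. *Mup3* held 34.0% ± 12.6 in ABpIF/+ and 77.8% ± 11.3 in Ctrl livers, and the central members 0.948% ± 0.740 and 13.2% ± 8.61.

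**Figure D2:**
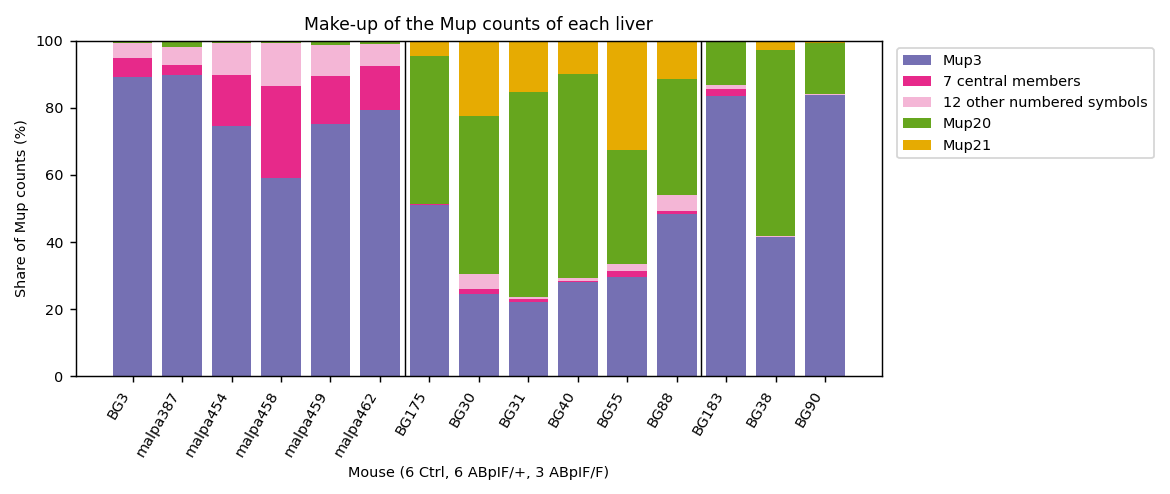
Stacked bars of the percent of each mouse's counts on the 22 Mup symbols that fell on Mup3, on the 7 central members, on the 12 other numbered symbols, on Mup20 and on Mup21. Mup3 and the central members fill most of each Ctrl bar, Mup20 takes 46.9% and Mup21 16.1% on average in ABpIF/+ bars, and BG38 is the ABpIF/F mouse with the largest Mup20 share.

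In ABpIF/F livers, where *Braf* V600E was combined with *Icmt* flx/flx, the family was partly present. The sum was 1222, 178 and 620 CPM in BG183, BG38 and BG90, so each ABpIF/F mouse was above every ABpIF/+ mouse and below every Ctrl mouse. The mean of 673 ± 524 CPM was 4.88-fold below Ctrl and 32.2-fold above ABpIF/+. Without BG183 the mean was 399 ± 313 CPM (n = 2), 8.23-fold below Ctrl and 19.1-fold above ABpIF/+. Of the 10 members edgeR called 4 lower and 1 higher than in Ctrl, where 2.38% of all genes were called lower and 4.55% higher. Against ABpIF/F, 4 members were called lower in ABpIF/+ and none higher, where 5.49% and 1.76% of all genes were called. Nothing is read from these counts, since these contrasts entered the choice too. The comparisons share the ABpIF/F and Ctrl mice. The median fitted log2 fold change of the members was -4.35 against Ctrl, and -4.68 for ABpIF/+ against ABpIF/F, or -4.62 with *Mup11* at its floor, where the medians over all genes were 0.00.

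Most *Mup* counts of the ABpIF/F livers were of *Mup3*, which was at 1021, 73.7 and 520 CPM in BG183, BG38 and BG90. All 3 values lay between the groups, above the highest ABpIF/+ mouse at 24.9 CPM and below the lowest Ctrl mouse at 1889 CPM. The mean of 538 ± 474 CPM was 65.2-fold above ABpIF/+ (fitted log2 fold change of ABpIF/+ against ABpIF/F -6.02, SE 0.84) and 4.74-fold below Ctrl (-2.24, SE 0.88). The 3 mice differed 13.9-fold among themselves. Without BG183 the mean was 36.0-fold above ABpIF/+ and 8.59-fold below Ctrl, and without the ABpIF/+ mouse BG175 it was 109-fold above ABpIF/+.

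The central members stayed low, and what there was of them came from BG183. *Mup17* had 433, 0 and 6 counts in BG183, BG38 and BG90, *Mup15* had 120, 0 and 0, *Mup7* had 78, 0 and 6 and *Mup11* had 79, 0 and 6. The 7 genes together were at 24.1, 0.194 and 0.857 CPM in these mice, against 65.7 CPM in the lowest Ctrl mouse. Their mean of 8.38 ± 13.6 CPM fell to 0.526 ± 0.469 without BG183. Thus the *Mup3* level was intermediate in all 3 mice, while the central genes were at or below 0.857 CPM together in BG38 and BG90. As means over the 3 mice, *Mup17* was 54.9-fold, *Mup15* 99.6-fold, *Mup2* 86.3-fold, *Mup11* 30.6-fold, *Mup10* 13.5-fold and *Mup7* 6.30-fold below Ctrl. Without BG183 these became 2451-fold for *Mup17*, 294-fold for *Mup2*, 265-fold for *Mup11*, 23.9-fold for *Mup10* and 54.1-fold for *Mup7*, and *Mup15* had 0 counts. *Mup1* had 2 counts in all, with a ratio of pooled counts of Ctrl to ABpIF/F of 38.5 (95% counting interval 10.5 to 321). All but *Mup7* were lower in every ABpIF/F mouse than in every Ctrl mouse, *Mup7* overlapping because BG183 was above malpa387. Over all genes 7.85% were lower in every ABpIF/F than in every Ctrl mouse, and again nothing is read from the members' count.

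*Mup20* was the only member that was higher in every ABpIF/F mouse than in every Ctrl mouse, as were 9.27% of all genes, and nothing is read from this. It was at 155, 98.3 and 93.7 CPM in BG183, BG38 and BG90, where the highest Ctrl mouse was at 35.4 CPM and the highest ABpIF/+ mouse at 21.4 CPM. The mean of 116 ± 34.0 CPM was 4.13-fold above Ctrl (fitted log2 fold change 2.04, SE 0.44) and 11.9-fold above ABpIF/+ (fitted log2 fold change of ABpIF/+ against ABpIF/F -3.57, SE 0.45). Without BG183 the mean was 96.0 ± 3.24 CPM (n = 2). Leaving out 1 mouse, the fitted log2 fold change against Ctrl was 1.78 to 2.18, and with the strain description as a covariate it was 2.54. The edgeR call of *Mup20* as higher in ABpIF/F than in Ctrl was lost with this covariate. It was also lost without BG3, malpa454, malpa458, malpa459, malpa462, BG183, BG38 or BG90. In BG38, the ABpIF/F mouse with the least *Mup3*, *Mup20* held 55.4% of the *Mup* counts (95% exact binomial interval 54.1 to 56.6) and *Mup3* 41.5% (40.3 to 42.7). In BG183 and BG90 *Mup20* held 12.7% (12.3 to 13.0) and 15.1% (14.6 to 15.7). *Mup21* was at 5.91, 4.96 and 3.89 CPM in BG183, BG38 and BG90, within the Ctrl range and above the highest ABpIF/+ mouse at 3.23 CPM.

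**Figure D3:**
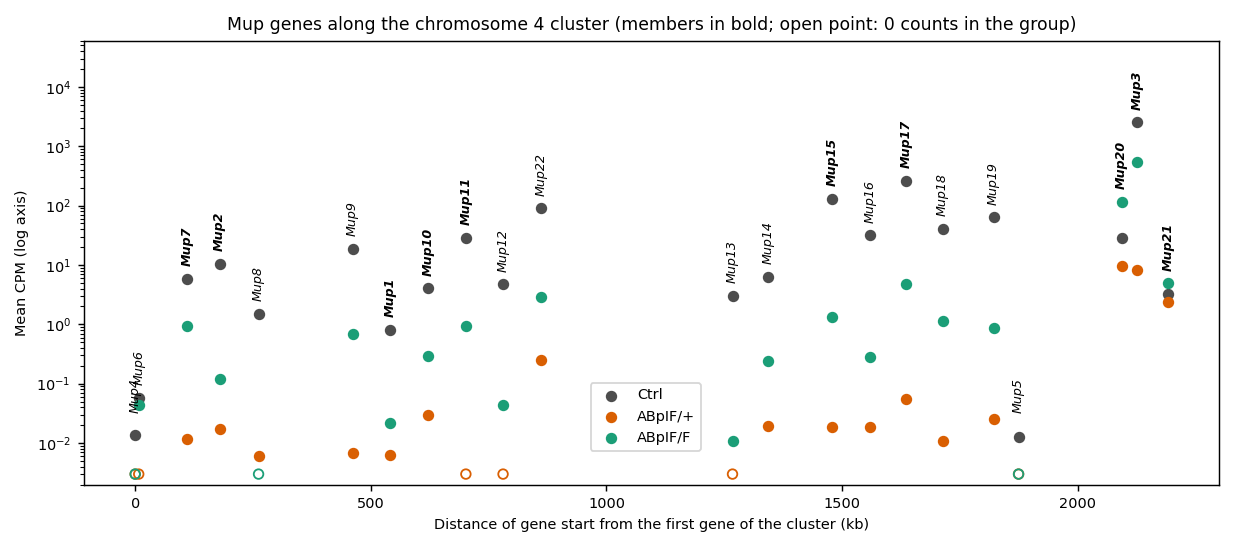
Mean CPM on a log axis of the 22 Mup genes in each group against the distance in kb of the gene's start from the first gene of the cluster, members in bold and open points for groups with 0 counts. From Mup7 to Mup19 the means run Ctrl, ABpIF/F, ABpIF/+ from high to low except at Mup8, where ABpIF/F is at 0, whereas Mup20 and Mup21 near the right edge are highest in ABpIF/F. From Mup7 to Mup19 most ABpIF/F counts come from BG183, and Mup1, Mup13 and Mup15 have 0 counts in BG38 and BG90.

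The 12 numbered symbols that were not members were mostly central copies as well. Together they were at 261 ± 116 CPM in Ctrl, 0.340 ± 0.411 CPM in ABpIF/+ and 6.25 ± 8.86 CPM in ABpIF/F livers. In each comparison with Ctrl 9 of the 12 were called lower and none higher. Over all genes 5.35% were called lower in ABpIF/+ and 2.38% in ABpIF/F. Nothing is read from these counts, since near-identical copies share reads with the members. *Mup22*, at 90.7 ± 38.3 CPM in Ctrl and 0.252 ± 0.410 CPM in ABpIF/+, was the most abundant of the 12. None of its 100-base windows is unique, and 92.4% are shared with *Mup10*. *Mup19* was at 63.4 ± 44.0 CPM in Ctrl and 0.0259 ± 0.0325 CPM in ABpIF/+ livers. *Mup4* and *Mup5*, known mainly from secretory glands of the head, and *Mup6* were at or below 0.0577 CPM on average in every group and were not called.

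The genes beside the cluster give a comparison that the choice of members did not use. Of the 10 nearest genes before the cluster, 1 was called lower and none higher in both comparisons with Ctrl. Of the 10 after it, 1 was called higher and 2 lower in ABpIF/+, and 1 higher and 1 lower in ABpIF/F. The shares of all genes called were 4.69% higher and 5.35% lower in ABpIF/+, and 4.55% and 2.38% in ABpIF/F. On the side of *Mup21* the nearest gene was *Zfp37*, a zinc finger gene 38.7 kb away. It was at 0.419 ± 0.154 CPM in Ctrl, 2.30 ± 0.460 CPM in ABpIF/+ and 3.15 ± 1.04 CPM in ABpIF/F livers, and rose in both comparisons with Ctrl (log2 fold change 2.44, SE 0.29, adjusted p = 8.55e-07 and 2.89, SE 0.32, adjusted p = 1.02e-06, edgeR). The nearest gene on the other side, *Slc46a2*, had 0 counts in every mouse. *Hsdl2*, a peroxisomal dehydrogenase gene 338.1 kb before the cluster, fell from 84.5 ± 9.84 CPM to 25.0 ± 1.42 CPM in ABpIF/+ and 26.6 ± 3.34 CPM in ABpIF/F (log2 fold change -1.76, SE 0.10, adjusted p = 3.37e-11 and -1.67, SE 0.13, adjusted p = 1.08e-08). *Slc31a1*, a copper transporter gene 209.9 kb after the cluster, fell in ABpIF/+ (log2 fold change -1.10, adjusted p = 4.29e-07). *Hdhd3*, 348.1 kb after it, fell in both, to 2.70 ± 0.256 CPM in ABpIF/+ and 8.04 ± 4.26 CPM in ABpIF/F from 17.6 ± 5.47 CPM in Ctrl (log2 fold change -2.70, adjusted p = 4.92e-08 and -1.13, adjusted p = 0.00731, lost without BG3, malpa387, malpa458, BG183 or BG38). It was also lower in ABpIF/+ than in ABpIF/F (-1.57, adjusted p = 4.11e-04). The other 16 neighbors, among them *Snx30*, at 12.0 ± 1.51 CPM in Ctrl and 11.3 ± 2.97 CPM in ABpIF/+, were not called in any comparison.

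For growth hormone signaling, on which hepatic *Mup* transcription is known to depend, the RNA of a list of 14 genes was read. Hormone levels and STAT5 activity are not part of these data. In ABpIF/+ livers 4 of the 14 were called lower and 2 higher than in Ctrl, the median of their log2 fold changes being -0.49. In ABpIF/F livers 5 were called lower and none higher, with a median of -0.34, where the medians over all genes were 0.00. The shares of all genes called were 5.35% lower and 4.69% higher in ABpIF/+, and 2.38% and 4.55% in ABpIF/F. This list and those below were chosen with earlier results of these data known, so their counts of calls are a description only. The receptor gene *Ghr* was at 550, 411, 580, 571, 514 and 537 CPM in BG3, malpa387, malpa454, malpa458, malpa459 and malpa462. It was at 162, 213, 164, 161, 227 and 190 CPM in BG175, BG30, BG31, BG40, BG55 and BG88, and at 199, 83.7 and 145 CPM in BG183, BG38 and BG90. All mice of both groups were below all Ctrl mice (log2 fold change -1.50, SE 0.17, adjusted p = 4.09e-07 for ABpIF/+ and -1.89, SE 0.22, adjusted p = 2.12e-06 for ABpIF/F), and ABpIF/+ and ABpIF/F overlapped (0.39, SE 0.21, adjusted p = 0.234). In the *Mup* sum, ABpIF/F mice lay above all ABpIF/+ mice. A link between the *Ghr* and *Mup* levels was not tested.

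The kinase gene *Jak2* was not called in either comparison with Ctrl (log2 fold change 0.12, SE 0.10 and 0.25, SE 0.13). *Stat5b*, the main STAT5 gene of the liver, was at 59.7 ± 13.7 CPM in Ctrl, 40.6 ± 6.04 CPM in ABpIF/+ and 59.5 ± 5.87 CPM in ABpIF/F livers and missed the fold limit in ABpIF/+ (log2 fold change -0.56, SE 0.14, adjusted p = 0.00326). *Stat5a* was lower in every ABpIF/+ mouse than in every Ctrl mouse, also short of the fold limit (-0.95, SE 0.16, adjusted p = 1.09e-04). Among the hepatic targets of growth hormone, *Igf1* fell in ABpIF/+ (-1.11, SE 0.19, adjusted p = 1.11e-04) and in ABpIF/F (-1.59, SE 0.25, adjusted p = 8.17e-05). *Igfals*, which encodes the carrier subunit that binds IGF-1 in plasma, fell from 163 ± 33.2 CPM in Ctrl to 26.2 ± 2.74 CPM in ABpIF/+ (-2.64, SE 0.19, adjusted p = 2.11e-09) and 49.9 ± 21.2 CPM in ABpIF/F (-1.71, SE 0.24, adjusted p = 2.73e-05). The prolactin receptor gene *Prlr* fell in both (-1.40, adjusted p = 3.78e-06 and -1.60, adjusted p = 4.21e-05).

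Of the 4 feedback inhibitor genes *Cish*, *Socs1*, *Socs2* and *Socs3*, *Cish* and *Socs3* were called higher in ABpIF/+ than in Ctrl livers, and none of the 4 with the strain description as a covariate. *Cish*, a STAT5 target, was at 51.4, 20.2, 36.2, 25.2, 55.8 and 60.2 CPM in the ABpIF/+ mice BG175, BG30, BG31, BG40, BG55 and BG88 and at 3.79 to 20.1 CPM in Ctrl mice (log2 fold change 1.62, SE 0.40, adjusted p = 0.00766). This call was lost without BG3, malpa387, malpa454, malpa462, BG175, BG31, BG55 or BG88. *Socs3*, which is also induced by inflammatory cytokines, rose in ABpIF/+ (2.31, SE 0.49, adjusted p = 0.00301). *Socs2* was at 33.4 ± 16.9 CPM in Ctrl and 84.8 ± 25.8 CPM in ABpIF/+ livers and was not called (1.35, SE 0.36, adjusted p = 0.0129), nor was *Socs1* (-0.42, SE 0.44, adjusted p = 0.641). In ABpIF/F livers none of the 4 was called (*Cish* 0.65, adjusted p = 0.472, *Socs2* 0.30, adjusted p = 0.882, *Socs3* 1.85, adjusted p = 0.0359, *Socs1* 0.96, adjusted p = 0.227). The female-specific repressor gene *Cux2* was at 12.6, 14.0 and 5.79 CPM in BG183, BG38 and BG90 and at 27.7 CPM or more in every other mouse. It fell in ABpIF/F against Ctrl (-2.39, SE 0.35, adjusted p = 1.50e-04) and was higher in ABpIF/+ than in ABpIF/F (3.09, SE 0.36, adjusted p = 3.63e-05). It was the only one of the 14 called between these groups. *Bcl6*, a transcriptional repressor gene, was not called in either comparison with Ctrl (-1.66, SE 0.43, adjusted p = 0.0106 in ABpIF/+), nor was *Onecut1*. With the strain description as a covariate, 3 of the 14 (*Ghr*, *Igfals* and *Prlr*) were called lower in each comparison with Ctrl and none higher.

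**Figure D4:**
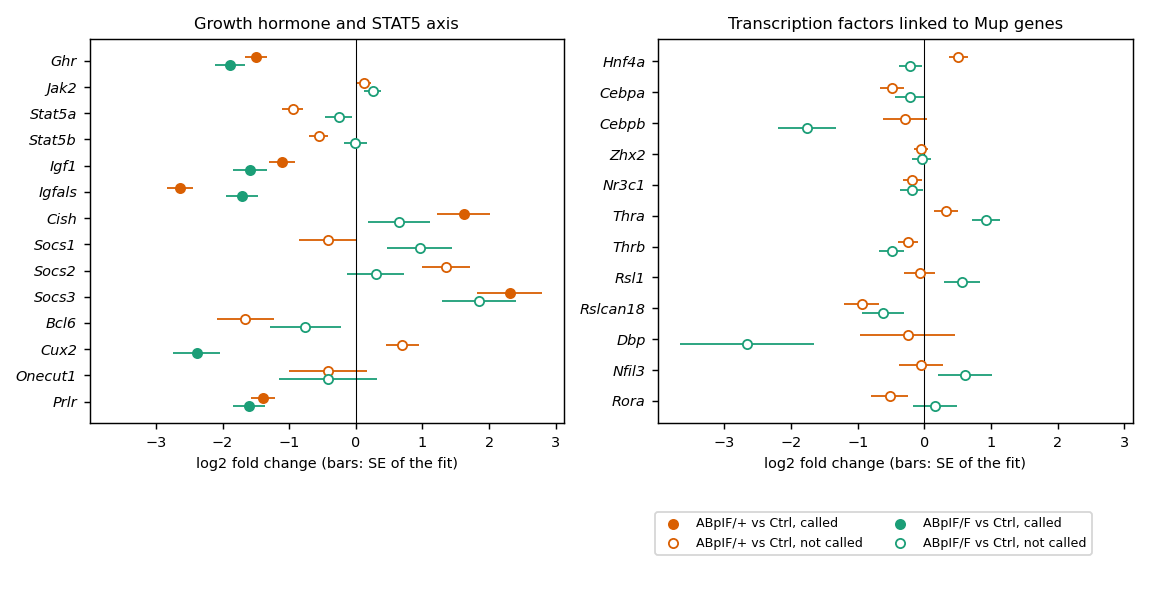
Log2 fold changes against Ctrl, with the SE of the fit as bars, of the 14 genes of the growth hormone and STAT5 axis and of 12 transcription factors linked to Mup genes, filled points being called at adjusted p under 0.01 and a size of at least 1. Ghr, Igf1, Igfals and Prlr are called lower in both groups, and none of the transcription factors shown is called.

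Of the transcription factors linked to *Mup* genes, 12 are given here. *Zhx2* was not called in either comparison with Ctrl (log2 fold change -0.05, SE 0.11 and -0.04, SE 0.14, edgeR). *Hnf4a* was higher in ABpIF/+ short of the fold limit (0.51, SE 0.14, adjusted p = 0.00789). *Cebpa* was at 424 ± 88.8 CPM in Ctrl and 301 ± 52.0 CPM in ABpIF/+ (-0.49, SE 0.18, adjusted p = 0.0497), and *Cebpb* was lower in every ABpIF/F mouse than in every Ctrl mouse (-1.76, SE 0.44, adjusted p = 0.0119) without being called. With the strain description as a covariate, *Cebpb* was called lower in ABpIF/F (-2.64, adjusted p = 0.00585). Of the thyroid hormone receptors, *Thra* was higher in ABpIF/F short of the fold limit (0.92, SE 0.21, adjusted p = 0.00356) and *Thrb* was not called. The glucocorticoid receptor gene *Nr3c1*, the clock output genes *Dbp* and *Nfil3*, and *Rora* were not called in any comparison. Nor were the KRAB zinc finger repressors *Rsl1* and *Rslcan18*, which lower male-specific liver genes. *Dbp* was at 3.7 CPM in Ctrl mouse malpa387 and at 95.3 to 141 CPM in the other Ctrl mice. It was at 32.9, 9.67 and 0.893 CPM in BG183, BG38 and BG90, against 58.2 to 114 CPM in ABpIF/+ mice. A link of *Dbp* to the *Mup* levels was not tested.

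Hepatic *Mup* genes belong to the genes with higher levels in males, so sex-biased liver genes were read in the same fits. Of 15 other male-biased genes, 7 were called lower and 3 higher in ABpIF/+ and 5 lower and 2 higher in ABpIF/F livers than in Ctrl. For all genes these shares were 5.35% and 4.69% in ABpIF/+, and 2.38% and 4.55% in ABpIF/F. *Slco1a1*, an organic anion transporter gene, fell from 130 ± 69.8 CPM to 3.67 ± 0.706 CPM in ABpIF/+ (log2 fold change -5.15, SE 0.55, adjusted p = 1.15e-05) and 9.54 ± 6.70 CPM in ABpIF/F (-3.77, SE 0.69, adjusted p = 0.00172). The call in ABpIF/F was lost without BG38 or BG90, and with the strain description as a covariate (-3.38, adjusted p = 0.0293, edgeR). *Hsd3b5*, a steroid dehydrogenase gene, and *Elovl3*, a fatty acid elongase gene, fell in ABpIF/+ (-5.37, SE 0.91, adjusted p = 5.69e-04 and -5.15, SE 0.75, adjusted p = 7.18e-05). Of 20 female-biased genes, 9 were called lower and 2 higher in ABpIF/+ and 11 lower and none higher in ABpIF/F. *Cyp3a41a*, a female-specific cytochrome P450 gene, fell from 132 ± 64.0 CPM to 2.59 ± 1.28 CPM in ABpIF/+ (-5.68, SE 0.53, adjusted p = 2.72e-06) and 0.238 ± 0.250 CPM in ABpIF/F (-9.02, SE 0.90, adjusted p = 1.36e-05). *A1bg*, a female-specific secreted protein gene, fell from 1457 ± 580 CPM to 108 ± 66.7 CPM in ABpIF/+ (-3.76, SE 0.48, adjusted p = 4.42e-05) and to 0.499 ± 0.249 CPM in ABpIF/F (-11.47, SE 0.97, adjusted p = 2.14e-06). Between the *Braf* V600E groups, 6 of the 20 were called higher in ABpIF/+ than in ABpIF/F and none lower. For all genes these shares were 1.76% and 5.49%. With the strain description as a covariate 7 of the 15 male-biased genes were called lower in ABpIF/+ and 3 in ABpIF/F, and 7 of the 20 female-biased genes in each, with none higher.

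Other secreted hepatocyte products were also counted. Of 15 abundant secreted proteins, 3 were called higher and none lower in ABpIF/+, and 4 higher and 1 lower in ABpIF/F livers than in Ctrl. For all genes these shares were 4.69% and 5.35% in ABpIF/+, and 4.55% and 2.38% in ABpIF/F. *Apoa1*, the main protein of high density lipoprotein, rose from 5788 ± 1524 CPM in Ctrl to 26830 ± 4539 CPM in ABpIF/+ (log2 fold change 2.21, SE 0.20, adjusted p = 1.36e-08). *Trf*, the gene of the iron carrier transferrin, rose from 19150 ± 1966 to 52930 ± 7102 CPM in ABpIF/+ (1.47, SE 0.18, adjusted p = 1.19e-06). Of 10 other lipocalin genes expressed in liver, 2 were called higher and 2 lower in ABpIF/+. *Lcn2*, an iron-siderophore binding lipocalin induced in inflammation, rose from 8.09 ± 1.74 CPM to 415 ± 337 CPM in ABpIF/+ (5.68, SE 0.65, adjusted p = 1.98e-05) and 608 ± 434 CPM in ABpIF/F (6.23, SE 0.69, adjusted p = 3.37e-05). *Ptgds*, a lipocalin-type prostaglandin D synthase gene, fell from 13.9 ± 7.57 CPM to 0.00533 ± 0.0131 CPM in ABpIF/+ (-10.38, SE 0.75, adjusted p = 3.53e-08, a fitted value that depends on the prior count) and 0.530 ± 0.503 CPM in ABpIF/F (-4.65, SE 0.60, adjusted p = 4.21e-05). *C8g*, the gamma chain of complement factor 8, fell in both (-1.79, adjusted p = 9.33e-07 and -1.72, adjusted p = 7.67e-05). With the strain description as a covariate the calls of *Lcn2* were lost (log2 fold change 6.03, SE 1.61, adjusted p = 0.0320 and 6.58, SE 1.67, adjusted p = 0.0281) and 1 of the 15 secreted proteins was called higher in ABpIF/+.

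Of the 8 hepatocyte markers, 2 were called higher and 1 lower in ABpIF/+ than in Ctrl livers. In ABpIF/F livers 1 was called higher and 3 lower than in Ctrl. For all genes the shares called higher and lower were 4.69% and 5.35% in ABpIF/+, and 4.55% and 2.38% in ABpIF/F. Markers of other cells moved with the groups as well. The summed level of 5 stellate cell and fibroblast markers was between 154 and 214 CPM in Ctrl, 37.3 and 78.5 CPM in ABpIF/+, and 135 and 226 CPM in ABpIF/F mice. That of 5 cholangiocyte markers was between 35.6 and 68.1, 29.9 and 145, and 204 and 1147 CPM in these groups. Most of the cholangiocyte sum was *Spp1*, at a mean of 43.8 CPM in Ctrl, 66.9 CPM in ABpIF/+ and 660 CPM in ABpIF/F livers. All 5 stellate cell markers were called lower in ABpIF/+ than in Ctrl and none in ABpIF/F, and of 5 cholangiocyte markers 3 were called higher in ABpIF/F, and 1 higher and 1 lower in ABpIF/+. Of 4 macrophage markers 2 were called lower in ABpIF/+ than in Ctrl, of 4 endothelial markers 1, and of 5 lymphocyte and neutrophil markers 2. In ABpIF/F against Ctrl, 2 of the 5 lymphocyte and neutrophil markers were called higher and none of the macrophage or endothelial markers in either direction. Between ABpIF/+ and ABpIF/F, the levels in ABpIF/+ were called lower for 4 of 5 stellate cell, 4 of 5 cholangiocyte, 3 of 4 macrophage and 4 of 5 lymphocyte and neutrophil markers and for none of the endothelial markers, and none was called higher. In this comparison 5.49% of all genes were called lower and 1.76% higher. No marker was at 0 counts in a whole group. In bulk tissue, fewer cells of a type and less RNA per cell cannot be told apart, and the part of cell composition in the *Mup* differences was not tested.

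The genes whose pattern was most like that of the *Mup* sum were named by Pearson's r of log2 CPM over the 15 mice, among 9558 genes outside the family that averaged 5 CPM or more. Among the 5 most alike were *Sdr9c7* (r = 0.99), *Hsd17b2* (0.98), *Slc22a30* (0.98) and *Carhsp1* (0.98). *Sdr9c7*, a short-chain dehydrogenase gene, was at 36.0 ± 5.58 CPM in Ctrl, 1.77 ± 0.489 CPM in ABpIF/+ and 13.3 ± 7.94 CPM in ABpIF/F livers. *Hsd17b2*, a steroid dehydrogenase gene, was at 193 ± 20.0, 51.8 ± 3.82 and 131 ± 57.5 CPM. These values share the group means, the libraries and their scaling. By deviations from the group means, the 5 most alike were *Mcm10* (r = 0.87), *Dio1* (0.87), *9030619P08Rik* (0.86), *Zfp407* (0.86) and *Cyp4v3* (0.85). These are the highest of 9558 values over only 15 mice, and whether they exceed what chance gives was not tested. *Dio1*, the deiodinase that activates thyroid hormone, was at 174 ± 43.1 CPM in Ctrl, 24.3 ± 11.1 CPM in ABpIF/+ and 48.0 ± 48.3 CPM in ABpIF/F livers.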

How the data were processed

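Liver RNA of 15 female mice was sequenced as stranded paired-end mRNA libraries. Reads were aligned to mm10 by the authors using HISAT2, featureCounts 2.0.8 gave the counts, and the deposited values are raw read counts per gene and mouse (27179 genes). Strand and multimapping options and the annotation are not given in the sources used here. The study lists 23 samples, with 1 column per mouse. Of the tables, columns headed by bare numbers (5), and columns of the authors' own fold changes and p-values, were not used. The members and lists were chosen with earlier results of these data known.

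Counts were fitted in R 4.3.3 with edgeR 4.0.16 (TMM, robust quasi-likelihood in the legacy form, no filter, all 3 groups in 1 fit), with p-values adjusted by Benjamini-Hochberg over 27179 genes and calls at adjusted p under 0.01 where the log2 fold change reached 1 in size. SEs were taken from the F statistic. Folds are of mean CPM, or of pooled counts over pooled library sizes where a group had at most 10 counts. Floors are 3 counts over a group, and intervals are 95% exact binomial, both covering counting error only. DESeq2 1.42.0, RLE size factors, filterByExpr, edgeR 4 quasi-likelihood, strain as a covariate, fits on the groups compared, adjusted p under 0.05 and leaving out each mouse were alternatives, for genes outside the family and for the folds of means chosen after seeing the data. All members, numbered *Mup* symbols, growth hormone and transcription factor genes could be named, up to 3 called genes with the largest change of each other list, the nearest and called neighbors, and the 5 most alike genes. GENCODE M21 placed 92.5% of the genes. Some genes these rules select are not reported here.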

Additional observations from a re-analysis of the deposited data

Results flagged for a closer look

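The values of the 10 members and of the *Mup* sum in Ctrl and ABpIF/+ mice gave 22 sets of 6 values. In 3 of them the highest mouse stood apart from the other 5 by Dixon's criterion. Chance exceeds it in about 1 set of 20 for normally distributed values, a rate that does not hold for sets of counts near 0. The set of *Mup11* in ABpIF/+ mice, all at 0, could not be flagged. *Mup3* was at 4143 CPM in Ctrl mouse BG3, and the next highest Ctrl mouse was at 2703 CPM. BG3 is the Ctrl mouse with the strain description of the other groups. The *Mup* sum was at 48.6 CPM in ABpIF/+ mouse BG175, and the next highest ABpIF/+ mouse was at 22.8 CPM. *Mup1* was at 0.0377 CPM in ABpIF/+ mouse BG55, which is 1 count, where the other 5 had 0. Any single count among zeros meets the criterion, so nothing is read from this flag.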

How the results depend on the processing

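The log2 ratio of the *Mup* sum kept its sign and stayed within 1 SD of the main value in all 49 alternatives, which were RLE or no scaling factors, the 10 members alone, the pseudogene added, geometric means, Ctrl mice of 1 strain description and each mouse left out. Leaving out 1 mouse, it ranged from -3.04 (without BG183) to -1.83 (without BG38) in ABpIF/F against Ctrl. With the strain description as a covariate, 1357 genes were called in ABpIF/+ against Ctrl in place of 2729, and 1148 in ABpIF/F against Ctrl in place of 1883. Leaving out 1 mouse gave 1212 (without BG38) to 2276 called genes in ABpIF/F against Ctrl and 1155 (without BG38) to 2048 in ABpIF/+ against ABpIF/F in place of 1969. The other 62 alternative counts were within 1.5 times of the main count. Of 420 alternative values of members, 3 reversed. *Mup21* in ABpIF/F against Ctrl had a log2 fold change of -0.40 with the strain covariate, where the main value was 0.62. Leaving out 1 mouse, the fitted value of ABpIF/+ against ABpIF/F ran from -2.56 (without BG55) to 1.25 (without BG183) for *Mup1* and from -6.81 (without BG55) to 2.36 (without BG183) for *Mup15*, without BG183 the remaining ABpIF/F mice having 0 counts of both. A call was lost in 27 and gained in 17, and the causes were not tested. No paired analysis was possible because the groups share no replicate numbers. The depth allows single central genes to be read in ABpIF/+ livers only as near 0.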
